A study of Bos grunniens with 6 samples.

Results

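The lysosome genes described here are 104 of the 15646 genes in a table of mRNA levels from cultured yak (Bos grunniens) hair follicle cells. They are the genes whose pathway annotation in that table holds the term Lysosome, 118 in all, less 4 that also carry the term for antigen processing and presentation and 10 that also carry the term for oxidative phosphorylation. Cathepsins B and L and legumain are among those left out, and so are the proton pump genes. The members were divided by role into 8 cathepsins and other proteases, 19 glycosidases, 8 sulfatases with their activating enzyme, 10 lipid hydrolases, activator proteins and thioesterases, 3 nucleases and phosphatases, 22 membrane and cholesterol transport proteins, 6 components of enzyme tagging and sorting, 25 coat and adaptor proteins and 3 others. Dermal papilla cells (DPC), mesenchymal cells at the base of the follicle, were compared with hair matrix cells (HMC), the epithelial cells that divide around the papilla to form the hair. Each cell type is represented by 3 libraries labelled as biological replicates, of genotype WT, from cells isolated from skin and grown in the same DMEM/F12 medium with 10% serum, 20 ng/mL EGF and 10 ng/mL IGF1. The labels do not say whether replicates came from separate animals, so p-values measure the spread between these cultures.

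The lysosome is an acidic compartment in which proteins, glycans, lipids and nucleic acids are broken down by soluble hydrolases. Most of these enzymes are made in the endoplasmic reticulum, receive a mannose 6-phosphate tag in the Golgi, and are carried onward by receptors in vesicles coated with adaptor proteins and clathrin. Membrane proteins of the lysosome line it, export the products of digestion and pass on cholesterol. In connective tissue cells, some cathepsins also take part in the turnover of collagen.

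Levels are FPKM, fragments scaled by gene length and by the mapped fragments of the library, so levels of different genes are compared per length. Reads recovered from the FPKM steps summed, in units of 1e+06, to between 13.1 and 13.4 in DPC libraries and between 13.695 and 14 in HMC libraries. All 8 fibroblast and papilla markers were higher in DPC, and 7 of 8 epithelial markers were higher in HMC, with keratin KRT14 not past the threshold. Within HMC, replicate 1 was furthest from the other two for 40.6% of tested lysosome genes and 34.3% of all tested genes, and replicate 3 for 39.6% and 39.1%. These are bulk libraries, in which fewer cells of a type and less RNA per cell cannot be told apart.

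Many lysosome genes differed between the cell types, in both directions. Of the 104 members, 96 had a mean of at least 0.5 FPKM and were tested. Of these, 47 were higher in DPC and 37 were higher in HMC at a limma adjusted p under 0.05, and 12 did not pass. That is 87.5% called, beside 75.9% of all 11883 genes tested. The share called higher in DPC was 49% of members and 29.7% of all genes, and the share called higher in HMC was 38.5% of members and 46.2% of all genes. At a difference of at least 2-fold, 15 members were called toward DPC, 15.6% of members beside 11% of all genes, and 13 toward HMC, 13.5% beside 16.1%. The values of DPC and HMC did not overlap for 85 tested members, 88.5%, beside 77.9% of all genes. The median log2 difference of log2(FPKM + 1), DPC minus HMC, was 0.21 over the members and -0.15 over all tested genes. That last value moved to 0.05 with libraries rescaled to TPM, -0.02 with median-of-ratios factors and 0.05 with quantile normalization, so small differences are to be read against this shift. With TPM, 53 members passed toward DPC and 32 toward HMC. Toward DPC went 62.4% of these member calls, beside 53.9% of the calls of all genes with TPM. As deposited, these shares were 56.0% and 39.1%, so the share of all genes also depends on scaling. Without HMC replicate 3 the member counts were 44 and 37. For 6 tested members, AP1M2, AP3M2, LAPTM5, ACP5, GALC and GM2A, the mean of the lower group was under 0.5 FPKM, so they passed the filter through the group in which they were high.

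**Figure D1:**
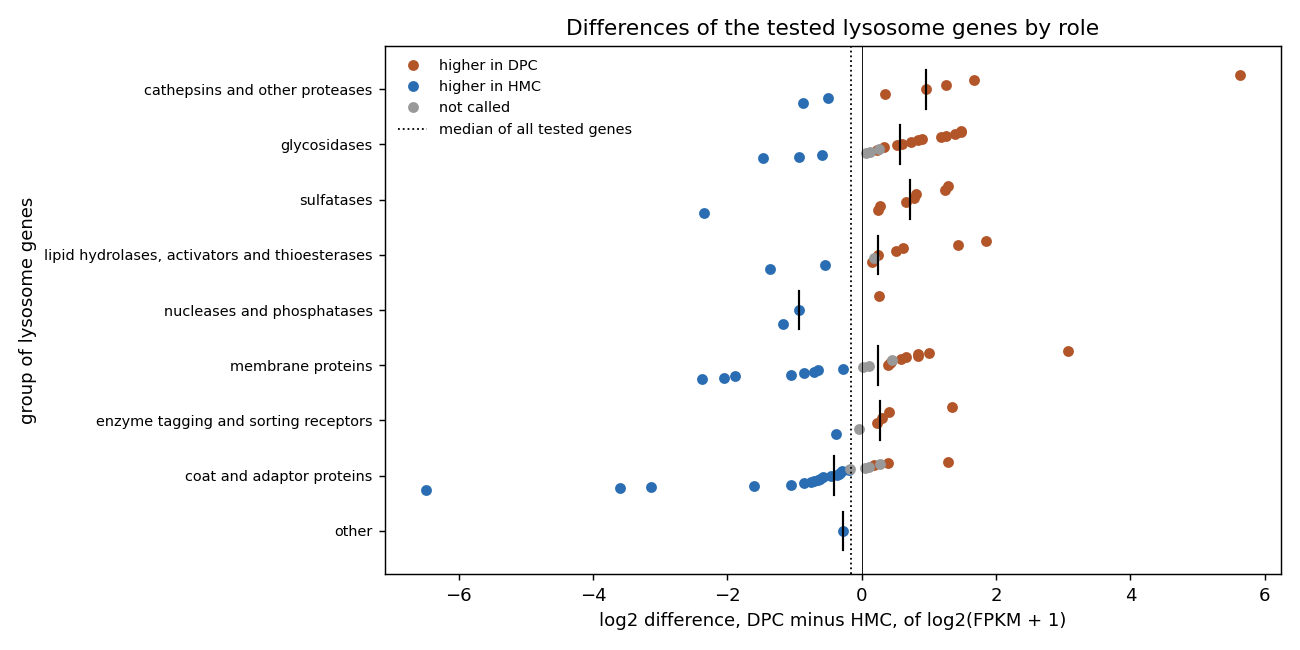
Log2 difference of log2(FPKM + 1), DPC minus HMC, on the horizontal axis for the 96 tested lysosome genes, grouped by role, with each point 1 gene coloured by its limma call and each vertical bar the group's median. The enzyme groups other than nucleases and phosphatases have medians to the right of the dotted line, which marks the median of all tested genes at -0.15, and the coat and adaptor proteins have a median of -0.42.

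Summed over all members, the level was 5594 to 5716 FPKM in DPC libraries and 4509 to 4706 FPKM in HMC libraries. As a share of all FPKM in a library this was 1.01 to 1.03% in DPC and 0.696 to 0.722% in HMC. Without cathepsin K, the sums were 4887 to 4969 FPKM in DPC, against 4494 to 4694 FPKM in HMC. The remaining members together thus still stood higher in every DPC library. These sums do not give the level of all genes with the Lysosome term, because the rule leaves some out. Among those left out, a cathepsin L gene averaged 92.2 FPKM in DPC, against 1753 FPKM in HMC. Cathepsin B averaged 513 FPKM in DPC, against 349 FPKM in HMC. The sums of glycosidases were 577 to 598 FPKM in DPC, against 390.4 to 426 FPKM in HMC, and those of coat and adaptor proteins were 835 to 852 FPKM in DPC, against 1298 to 1319 FPKM in HMC. The 5 enzyme groups as a whole had 31 members higher in DPC, 10 higher in HMC and 4 not called among 45 tested. Coat and adaptor proteins had 3 higher in DPC, 17 higher in HMC and 4 not called among 24 tested. All counts by role, here and below, are to be read beside 29.7% of all genes higher in DPC and 46.2% higher in HMC. Both shares are for the values as deposited.

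Among proteases the largest difference was that of cathepsin K (CTSK, ENSBGRG00000001240), the cysteine protease that cleaves fibrillar collagen in osteoclasts and fibroblasts. Its level was 707, 722 and 747 FPKM in DPC replicates 1, 2 and 3, against 12.2, 13.9 and 15.1 FPKM in HMC. Every DPC library stood far above every HMC library, and the log2 difference was 5.63 (SE 0.07, limma adjusted p = 1.6e-10). CTSK ranked 1 among the 104 members by mean level in DPC and 59 in HMC. It made up 56.0 to 56.4% of the summed level of the 8 member proteases in DPC and 2.24 to 2.84% in HMC.

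Cathepsin C (CTSC), the dipeptidyl peptidase that activates serine proteases of immune granules, went the other way. It stood at 187, 179.7 and 186 FPKM in DPC, against 335, 339.7 and 342 FPKM in HMC. The groups did not overlap, and the log2 difference was -0.87 (SE 0.03, limma adjusted p = 5.44e-08). CTSC made up 14.0 to 14.9% of the summed level of the 8 member proteases in DPC and 61.8 to 64.2% in HMC. It ranked 2 among all members in HMC after prosaposin. The summed level of these 8 proteases was 1262 to 1326 FPKM in DPC, against 532 to 542 FPKM in HMC. Without CTSK it was 555 to 579 FPKM in DPC, against 517 to 530.1 FPKM in HMC. The direction of these sums holds for the member proteases alone. Of 4 protease genes that the rule leaves out, 2 were higher in DPC and 2 in HMC. Among them, a cathepsin L gene averaged 92.2 FPKM in DPC, against 1753 FPKM in HMC.

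Cathepsin H (CTSH), mainly an aminopeptidase, stood at 62.0, 61.6 and 69.7 FPKM in DPC, against 23.1, 18.7 and 16.98 FPKM in HMC (log2 difference 1.68, limma adjusted p = 1.61e-06). Cathepsin Z (CTSZ), a carboxypeptidase, stood at 207, 215 and 216 FPKM in DPC, against 93.8, 86.9 and 85.8 FPKM in HMC (log2 difference 1.25, limma adjusted p = 4.28e-08). Both were higher in every DPC library than in any HMC library, by more than 2-fold on this scale. Tripeptidyl peptidase 1 (TPP1, in the table CLN2), which removes tripeptides from the ends of proteins, stood at 26.2, 25.4 and 26.4 FPKM in DPC, against 13.8, 12.8 and 12.2 FPKM in HMC (log2 difference 0.96). Cathepsin A (CTSA, in the table PPGB), a carboxypeptidase that also protects beta-galactosidase and neuraminidase, differed less, with 69.4, 73.4 and 77.8 FPKM in DPC, against 59.5, 55.8 and 56.6 FPKM in HMC (log2 difference 0.35, limma adjusted p = 0.000421). Cathepsin O (CTSO, in the table CTSO1), a little-studied cysteine protease, was low in both cell types and higher in HMC, at 2.45, 3.03 and 3.39 FPKM in DPC, against 4.97, 4.94 and 3.92 FPKM in HMC (log2 difference -0.51, limma adjusted p = 0.00483). In all, 5 of 7 tested proteases were higher in DPC and 2 in HMC, and the median log2 difference was 0.96, beside -0.15 for all genes. The aspartic protease napsin A (NAPSA, in the table NAP1) was at or near 0, with at most 0.185 FPKM in any library, and was not tested.

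**Figure D2:**
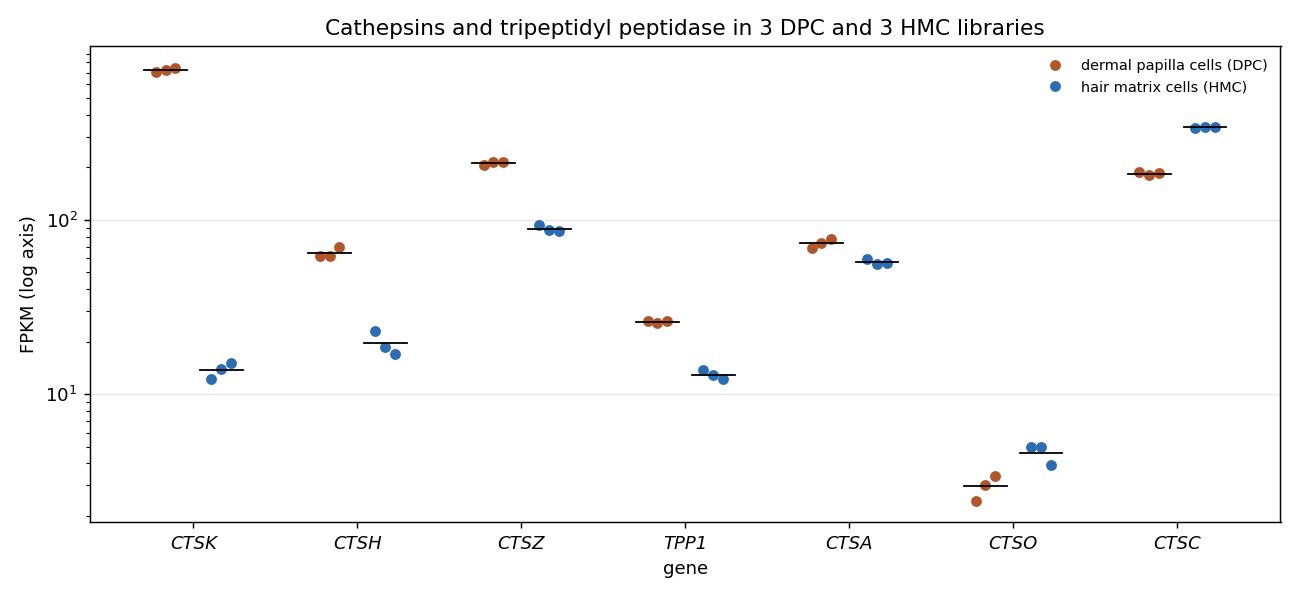
FPKM on a log axis for the 7 tested lysosomal proteases, with 1 point per library, a bar at the group mean, and DPC left of HMC for each gene. The DPC points of CTSK lie between 707 and 747 FPKM and its HMC points between 12.2 and 15.1 FPKM, whereas CTSC and CTSO are higher in HMC.

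The proteases that the rule leaves out also went in both directions. Cathepsin B (CTSB) averaged 513 FPKM in DPC, against 349 FPKM in HMC, and legumain (LGMN, in the table PRSC1), an asparaginyl endopeptidase, averaged 33.9 FPKM in DPC, against 21.2 FPKM in HMC. The more abundant of 2 genes called CTSL1 in the table, the older symbol of cathepsin L, averaged 92.2 FPKM in DPC, against 1753 FPKM in HMC. Candidate inhibitors of cathepsins, cystatins and serpins with 11 symbols in the list, had 7 matches in the table and 5 tested genes. All 5 were higher in HMC, beside 46.2% of all genes, and 4 of them by at least 2-fold, beside 16.1%. Cystatin C (CST3), a secreted inhibitor of cysteine cathepsins, stood at 58.7 ± 3.60 FPKM in DPC, against 157 ± 9.86 FPKM in HMC (n = 3 per group, SD; log2 difference -1.40). The gene called CST6, a symbol that has been used for more than one cystatin and that carries no annotation in the table, stood at 25.1 ± 3.43 FPKM in DPC, against 286 ± 5.84 FPKM in HMC (n = 3 per group, SD; log2 difference -3.47). The other 3 were clade B serpins, which mainly inhibit serine proteases, with SERPINB8 at 55.8 ± 2.11 FPKM in DPC, against 195 ± 7.61 FPKM in HMC (n = 3 per group, SD; log2 difference -1.79). SERPINB6 shares its symbol with 3 further genes in the table, so its value is uncertain.

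Glycosidases, which remove sugars from glycoproteins, glycolipids and glycosaminoglycans, were mostly higher in DPC. Among 18 tested, 12 passed toward DPC, including 5 by at least 2-fold, and 3 passed toward HMC. Of all genes, 29.7% passed toward DPC, including 11% by at least 2-fold, and 46.2% toward HMC. The median log2 difference of the glycosidases was 0.56. Beta-glucuronidase (GUSB, ENSBGRG00000024374), which acts on glucuronic acid in glycosaminoglycans, stood at 95.5, 95.8 and 97.4 FPKM in DPC, against 32.9, 34.7 and 34.3 FPKM in HMC (log2 difference 1.48, SE 0.04, limma adjusted p = 1.02e-08). A second gene under the same symbol (ENSBGRG00000024290) was lower in level and differed alike, by 1.39, and may share reads with the first. Acid alpha-glucosidase (GAA), which degrades glycogen, stood at 12.5, 12.4 and 13.05 FPKM in DPC, against 3.74, 4.44 and 3.63 FPKM in HMC (log2 difference 1.47). Alpha-galactosidase A (GLA), the enzyme deficient in Fabry disease, stood at 28.8, 26.7 and 27.1 FPKM in DPC, against 10.97, 10.3 and 11.5 FPKM in HMC (log2 difference 1.26). Beta-galactosidase (GLB1), the enzyme behind the senescence-associated stain and the most abundant glycosidase by the mean over all 6 libraries, though below FUCA1 in HMC, stood at 99.4, 103.5 and 105 FPKM in DPC, against 48.9, 43.4 and 41.8 FPKM in HMC (log2 difference 1.18). No library of either group overlapped with the other group for these genes.

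Smaller differences toward DPC, between 0.90 and 0.22 on the log2 scale, were those of alpha-iduronidase (IDUA), aspartylglucosaminidase (AGA), alpha-mannosidase (MAN2B1), neuraminidase (NEU1), galactosylceramidase (GALC), hexosaminidase A (HEXA) and alpha-fucosidase FUCA1. GALC was low, at 0.704 to 1.13 FPKM in DPC, against 0.224 to 0.392 FPKM in HMC. Fucosidases were divided: FUCA1 stood at 73.3, 70.1 and 77.4 FPKM in DPC, against 60.6, 62.0 and 65.9 FPKM in HMC. FUCA2 (in the table PSEC0151) stood at 23.1, 21.6 and 19.2 FPKM in DPC, against 66.5, 61.8 and 53.6 FPKM in HMC (log2 difference -1.46, limma adjusted p = 1.56e-06). FUCA2 accordingly held 19.9 to 24.0% of the summed level of this pair in DPC and 44.9 to 52.3% in HMC. Beta-mannosidase (MANBA) and a hyaluronidase gene called HYAL1 (ENSBGRG00000024189), which degrades hyaluronan, were the other glycosidases higher in HMC, with log2 differences of -0.60 and -0.93. HYAL1 was low, at 1.77 to 2.27 FPKM in DPC, against 4.69 to 4.88 FPKM in HMC.

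Alpha-N-acetylglucosaminidase (NAGLU, in the table UFHSD1) did not pass, at 24.4, 26.5 and 24.3 FPKM in DPC, against 24.8, 23.3 and 20.8 FPKM in HMC (log2 difference 0.12, limma adjusted p = 0.172). Its groups overlapped. NAGLU was called higher in DPC under the 3 other scalings, with log2 differences between 0.27 and 0.35.

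Sulfatases remove sulfate groups from glycosaminoglycans and sulfatides, and all but 1 were higher in DPC. Of 8 tested, 7 were higher in DPC, beside 29.7% of all genes, and 1 in HMC, beside 46.2%. The median log2 difference was 0.72. Arylsulfatase G (ARSG), which acts on heparan sulfate, had the largest difference toward DPC, at 9.36, 9.41 and 9.74 FPKM in DPC, against 3.58, 3.33 and 3.01 FPKM in HMC (log2 difference 1.29). Arylsulfatases A and B (ARSA, ARSB), galactosamine-6-sulfatase (GALNS), sulfamidase (SGSH, in the table HSS) and the sulfatase-activating enzyme SUMF1 followed, with log2 differences between 0.80 and 0.25. Iduronate-2-sulfatase (IDS, in the table SIDS), the enzyme deficient in Hunter syndrome, was the exception. Its level was 18.7, 17.9 and 16.7 FPKM in DPC, against 97.8, 91.5 and 93.98 FPKM in HMC (log2 difference -2.35, SE 0.06, limma adjusted p = 3.44e-09). With IDS included, the sulfatase sums were nearly level, at 211 to 212 FPKM in DPC, against 205 to 208 FPKM in HMC.

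Across roles, 16 members share the annotation of glycosaminoglycan degradation, and 14 of them were tested, with 9 higher in DPC, 4 higher in HMC and 1 not called. Among the 9 were both GUSB genes, GLB1, IDUA, ARSB, GALNS, HEXA and SGSH. IDS and IDUA act on iduronic acid residues in the same chains, and they went opposite ways, IDUA standing at 20.5, 20.1 and 19.8 FPKM in DPC, against 10.7, 10.7 and 9.54 FPKM in HMC. The acetyltransferase of heparan sulfate breakdown, HGSNAT (in the table TMEM76), stood at 22.6, 22.1 and 22.8 FPKM in DPC, against 27.7, 28.8 and 26.6 FPKM in HMC (log2 difference -0.29). HGSNAT did not pass with TPM or quantile normalization (log2 differences -0.06 and -0.05). HYAL3, with a log2 difference of -0.28, did not pass under any of the 3 other scalings (-0.16, -0.18 and -0.15), nor without DPC replicate 3 or HMC replicate 1 (limma adjusted p = 0.079 and 0.0747). Of the 8 members annotated with sphingolipid metabolism, 6 were higher in DPC, 1 in HMC and 1 did not pass.

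**Figure D3:**
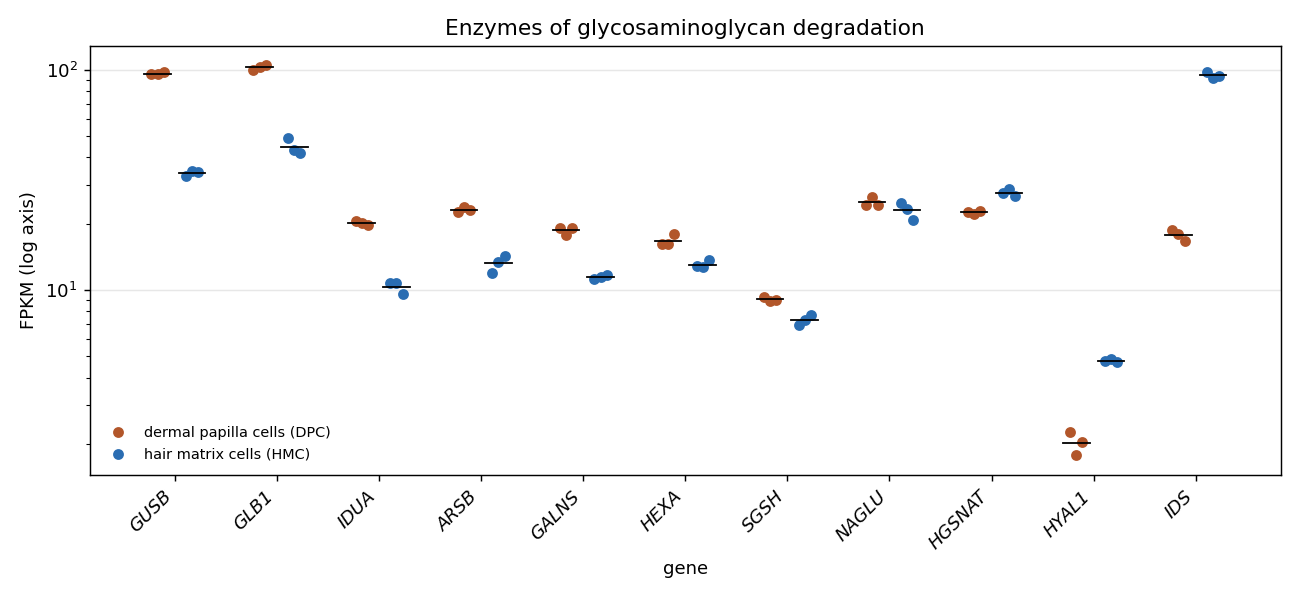
FPKM on a log axis for 11 tested enzymes of glycosaminoglycan degradation, with 1 point per library, a bar at the group mean, and DPC left of HMC for each gene. IDS stands out with 16.7 to 18.7 FPKM in DPC, against 91.5 to 97.8 FPKM in HMC, while GUSB and GLB1 lie higher in DPC.

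Enzymes and helper proteins of lipid breakdown went both ways. Of 9 tested, 6 were higher in DPC, 2 in HMC and 1 did not pass, with a median log2 difference of 0.24. Prosaposin (PSAP), the precursor of the saposins that present sphingolipids to hydrolases, was the most abundant member in HMC and the second in DPC. It stood at 663, 677 and 698 FPKM in DPC, against 508, 487 and 439.8 FPKM in HMC (log2 difference 0.51, limma adjusted p = 3.94e-05). Lysosomal acid lipase (LIPA, in the table QflA-10548), which frees cholesterol and fatty acids from the lipids of lipoproteins, stood at 24.4, 25.9 and 27.6 FPKM in DPC, against 6.90, 6.35 and 6.17 FPKM in HMC (log2 difference 1.85, SE 0.07, limma adjusted p = 5.78e-08). The lysosomal phospholipase PLA2G15 stood at 18.1, 17.8 and 18.4 FPKM in DPC, against 5.85, 6.13 and 6.25 FPKM in HMC (log2 difference 1.43). Both lipases were thus more than 2-fold higher in DPC. Acid ceramidase (ASAH1), which splits ceramide into sphingosine and a fatty acid, was higher in HMC, at 65.8, 65.7 and 66.4 FPKM in DPC, against 178.6, 169.7 and 167 FPKM in HMC (log2 difference -1.37, limma adjusted p = 1.26e-08).

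Palmitoyl-protein thioesterases remove fatty acids from proteins. PPT2 stood at 26.5, 25.9 and 23.3 FPKM in DPC, against 39.5, 37.6 and 35.6 FPKM in HMC (log2 difference -0.55), whereas PPT1 (in the table CLN1) stood at 24.9, 27.4 and 23.3 FPKM in DPC, against 20.4, 22.4 and 23.3 FPKM in HMC. PPT1 did not pass (limma adjusted p = 0.0568), passed without DPC replicate 3 or HMC replicate 3 (limma adjusted p = 0.0318 and 0.045), and was called higher in DPC under each of the other scalings. The GM2 activator GM2A (ENSBGRG00000007223, in the table QccE-17591), which presents gangliosides to hexosaminidase, was low, at 0.922, 1.01 and 1.36 FPKM in DPC, against 0.481, 0.317 and 0.314 FPKM in HMC. Acid sphingomyelinase (SMPD1) had a small difference toward DPC of 0.24. Its call was lost when single libraries were left out, with limma adjusted p values of 0.0569 without DPC replicate 3, 0.0543 without HMC replicate 2 and 0.0506 without HMC replicate 3.

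Of the 3 nucleases and phosphatases, 2 were higher in HMC. The acid nuclease DNASE2 (in the table DNASE2A), which digests the DNA of engulfed cells, stood at 24.8, 25.5 and 27.5 FPKM in DPC, against 53.9, 50.03 and 48.0 FPKM in HMC (log2 difference -0.94, limma adjusted p = 2.05e-06). Tartrate-resistant acid phosphatase (ACP5), an osteoclast and macrophage enzyme, was low, at 0.540, 0.355 and 0.233 FPKM in DPC, against 2.33, 2.27 and 1.73 FPKM in HMC (log2 difference -1.18). Acid phosphatase 2 (ACP2) stood at 17.9, 14.7 and 14.2 FPKM in DPC, against 12.8, 12.9 and 12.6 FPKM in HMC (log2 difference 0.26, limma adjusted p = 0.0249). That call was lost without DPC replicate 1 (limma adjusted p = 0.0559), without HMC replicate 1 (0.0572), without HMC replicate 2 (0.0536) and without HMC replicate 3 (0.0611).

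Membrane proteins went both ways. Of 20 tested, 9 were higher in DPC, beside 29.7% of all genes, 8 were higher in HMC, beside 46.2%, and 3 did not pass. The median log2 difference was 0.25. LAMP1, CD63, CD164 and SCARB2 were among those higher in DPC. LAMP1, which lines the inner face of the membrane, stood at 308, 318 and 334 FPKM in DPC, against 184, 178 and 175 FPKM in HMC (log2 difference 0.83, limma adjusted p = 3.37e-07). The tetraspanin CD63, the most abundant membrane protein, stood at 366, 371 and 366 FPKM in DPC, against 209.03, 208.5 and 200.2 FPKM in HMC (log2 difference 0.83). The sialomucin CD164 and SCARB2 (in the table CD36L2), a receptor that carries an enzyme to the lysosome, had log2 differences of 0.67 and 0.59, the second with 70.9 to 74.3 FPKM in DPC, against 47.1 to 50.1 FPKM in HMC. These 4 differed by less than 2-fold.

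The transporters CTNS, SLC17A5 and ABCB9 were higher in HMC, each by more than 2-fold, while the transporter MFSD8 (in the table CLN7) was higher in DPC, with a log2 difference of 0.43. Cystinosin (CTNS), which releases cystine, stood at 5.90, 5.85 and 6.42 FPKM in DPC, against 29.3, 27.8 and 27.6 FPKM in HMC (log2 difference -2.05, SE 0.06, limma adjusted p = 1.43e-08). Sialin (SLC17A5), which releases sialic acid, stood at 4.99, 6.45 and 6.95 FPKM in DPC, against 22.8, 25.2 and 27.9 FPKM in HMC (log2 difference -1.89, limma adjusted p = 1.43e-06). The peptide transporter ABCB9 (in the table KIAA1520) stood at 0.820, 0.637 and 1.19 FPKM in DPC, against 8.70, 8.63 and 8.95 FPKM in HMC (log2 difference -2.38, limma adjusted p = 2.33e-07). The groups did not overlap for any of the 3. CLN3 (in the table QccE-16380), whose loss causes juvenile Batten disease, stood at 19.3, 17.1 and 18.8 FPKM in DPC, against 42.4, 38.1 and 37.5 FPKM in HMC (log2 difference -1.06). The nucleotidase ENTPD4 and the endosomal protein LITAF were also higher in HMC, with log2 differences of -0.71 and -0.66.

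The pair of proteins that hands cholesterol out of the lysosome was split. NPC2, the soluble carrier listed here beside its membrane partner, stood at 280.4, 277 and 281 FPKM in DPC, against 219, 207 and 190.4 FPKM in HMC (log2 difference 0.44, limma adjusted p = 7.57e-05). NPC1, the membrane transporter that takes cholesterol from it, stood at 30.3, 31.3 and 31.0 FPKM in DPC, against 57.6, 58.9 and 54.0 FPKM in HMC (log2 difference -0.86, limma adjusted p = 8.74e-07). NPC1 held 9.75 to 10.1% of the summed level of the pair in DPC and 20.8 to 22.1% in HMC. The calcium channel MCOLN1 had a difference of 0.39 toward DPC. The sorting receptor sortilin (SORT1) did not pass, at 9.19, 9.26 and 10.1 FPKM in DPC, against 9.84, 9.60 and 8.66 FPKM in HMC (limma adjusted p = 0.812). SORT1 was called higher in DPC with TPM (log2 difference 0.24).

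Within the LAPTM family, LAPTM5, a lysosomal protein best known from blood cells, was detected mainly in DPC. It stood at 9.25, 9.76 and 9.38 FPKM in DPC, against 0.098, 0.242 and 0.431 FPKM in HMC (log2 difference 3.07, SE 0.11, limma adjusted p = 3.61e-08). Of 14 macrophage and myeloid markers, 10 matched the table, LAPTM5 and the lysosomal protein CD68 among them. No match was found for PTPRC, LYZ, FCER1G and MRC1. The summed level of the 10 was 13.5 to 14.1 FPKM in DPC, against 15.4 to 20.5 FPKM in HMC. Of the mean of this sum, 13.9 FPKM in DPC and 18.5 FPKM in HMC, LAPTM5 itself gave 9.46 and 0.257 FPKM. The defining markers CSF1R, ITGAM, TYROBP and SPI1 averaged at most 0.117 FPKM in either cell type, and CD14 and AIF1 were higher in HMC. CD163 stood at 0.341, 0.676 and 0.409 FPKM in DPC and was listed at 0 in every HMC library, and CD53 was listed at 0 in every DPC library and averaged 0.419 FPKM in HMC. Neither was tested. CD68 stood at 1.25, 1.505 and 1.11 FPKM in DPC, against 1.29, 0.780 and 1.33 FPKM in HMC, with overlapping groups (limma adjusted p = 0.469). LAPTM4B (ENSBGRG00000005040), an endosomal protein that binds ceramide, stood at 50.6, 44.7 and 52.4 FPKM in DPC, against 23.4, 28.1 and 21.4 FPKM in HMC (log2 difference 0.99). A second gene under that symbol (ENSBGRG00000018612) varied among DPC replicates, at 1.38, 4.12 and 2.79 FPKM, against 1.68, 1.33 and 1.87 FPKM in HMC. It did not pass (limma adjusted p = 0.13), and passed without DPC replicate 1 (limma adjusted p = 0.004). The metal transporter SLC11A1 (in the table NRAMP1) and LAMP3 were each above 0 in 1 library and were not tested.

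**Figure D4:**
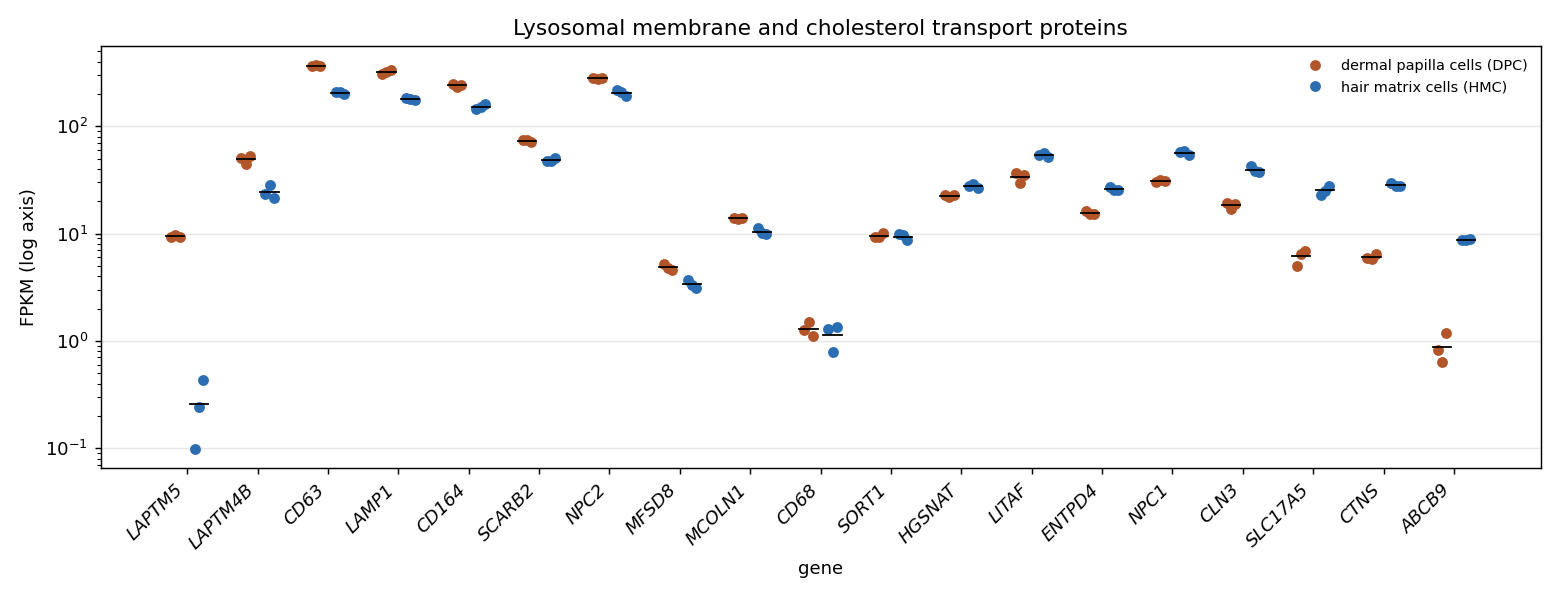
FPKM on a log axis for 19 tested membrane and cholesterol transport proteins, with 1 point per library, a bar at the group mean, and DPC left of HMC for each gene, ordered by log2 difference. The abundant CD63, LAMP1, CD164 and NPC2 are higher in DPC, and CTNS, SLC17A5 and ABCB9 at the right end are higher in HMC.

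Among 6 tested components that tag and sort lysosomal enzymes, 4 were higher in DPC, 1 was higher in HMC and 1 did not pass. The cation-independent mannose 6-phosphate receptor IGF2R (in the table M6P), which also clears IGF2, stood at 59.5, 60.4 and 56.0 FPKM in DPC, against 22.5, 23.7 and 21.0 FPKM in HMC (log2 difference 1.35, SE 0.06, limma adjusted p = 1.58e-07). The smaller receptor M6PR was more abundant and differed less, at 122, 119 and 121 FPKM in DPC, against 101.3, 101.2 and 106 FPKM in HMC (log2 difference 0.23, limma adjusted p = 0.000604). IGF2R held 31.6 to 33.7% of the summed level of both receptors in DPC and 16.5 to 19.0% in HMC. The catalytic subunits of the phosphotransferase that makes the tag are encoded by GNPTAB (in the table GNPTA), which stood at 37.0, 34.2 and 37.6 FPKM in DPC, against 45.2, 48.4 and 49.9 FPKM in HMC (log2 difference -0.39). GNPTAB did not pass with quantile normalization (log2 difference -0.10). Its partner subunit GNPTG (ENSBGRG00000026483) went the other way, at 27.2, 27.5 and 27.5 FPKM in DPC, against 20.7, 20.5 and 20.3 FPKM in HMC (log2 difference 0.40). A second gene called GNPTG (ENSBGRG00000026477) was low, at 2.01, 2.73 and 2.53 FPKM in DPC, against 1.79, 1.77 and 1.75 FPKM in HMC (log2 difference 0.30, limma adjusted p = 0.0245). Its call was lost in 5 of the 6 fits with 1 library left out, with limma adjusted p values between 0.0518 and 0.0841, and with voom on recovered reads (0.295). NAGPA, which uncovers the tag, did not pass, at 8.62, 8.19 and 10.5 FPKM in DPC, against 9.80, 9.88 and 8.50 FPKM in HMC (limma adjusted p = 0.716).

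Coat and adaptor proteins, which form the vesicles between the Golgi, endosomes and lysosomes, were mostly higher in HMC. Of 24 tested, 17 were higher in HMC, beside 46.2% of all genes, and 5 of them by at least 2-fold, beside 16.1%. The median log2 difference was -0.42. The largest difference of any lysosome gene was that of AP1M2, the medium subunit that makes the epithelial form of the AP-1 adaptor, known for sorting to the basolateral membrane. AP1M2 stood at 0.263, 0.269 and 0.465 FPKM in DPC, against 123, 119.8 and 113 FPKM in HMC (log2 difference -6.49, SE 0.08, limma adjusted p = 1.34e-10). Its widely expressed paralog AP1M1 (in the table CLTNM) went the other way, at 73.5, 75.1 and 77.8 FPKM in DPC, against 28.9, 30.4 and 32.3 FPKM in HMC (log2 difference 1.28, limma adjusted p = 1.11e-07). AP1M2 held 0.357 to 0.594% of the summed level of this pair in DPC and 77.7 to 80.9% in HMC. The epithelial genes KRT5, KRT8, KRT18 and CDH1 moved in the same direction as AP1M2, with summed epithelial markers at 54.2 to 74.5 FPKM in DPC, against 6045 to 6346 FPKM in HMC, and their part in the result was not tested.

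Other subunits of AP-1 were also higher in HMC. The small subunit AP1S3 stood at 4.59, 4.37 and 4.15 FPKM in DPC, against 65.8, 62.9 and 63.1 FPKM in HMC (log2 difference -3.60, limma adjusted p = 4.08e-10), while AP1S1 (in the table AP19) differed by -0.72. The beta subunit AP1B1 (in the table Adtb1) and the gamma subunits AP1G1 (in the table ADTG) and AP1G2 differed by -0.75, -0.62 and -1.05. AP1M1 was thus the tested AP-1 subunit among the members that was higher in DPC.

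In AP-3, which routes membrane proteins to lysosomes and related organelles, the medium subunit AP3M2, known mainly from neurons, stood at 0.029, 0.119 and 0.118 FPKM in DPC, against 7.63, 8.50 and 9.69 FPKM in HMC (log2 difference -3.14, limma adjusted p = 2.12e-08). Its widely expressed paralog AP3M1 differed by -0.34. AP3M2 held 0.0869 to 0.351% of the summed level of this pair in DPC and 15.4 to 18.1% in HMC. The DPC values of AP3M2 correspond to 1, 4 and 4 recovered reads in replicates 1, 2 and 3, known up to a factor. Of the other AP-3 subunits, AP3D1 (in the table BLVR) differed by -0.33, AP3B1 by -0.20 and AP3S2 by 0.39, and AP3S1 did not pass as deposited, at 22.8, 22.3 and 22.4 FPKM in DPC, against 23.1, 20.4 and 22.1 FPKM in HMC. The calls of AP3S1, AP3B1, AP3D1 and AP3M1 depended on scaling. AP3S1 was called higher in DPC under all 3 other scalings, with log2 differences between 0.19 and 0.27. AP3B1 had a log2 difference of 0.03 with TPM, -0.04 with median-of-ratios factors and 0.06 with quantile normalization, and passed under none of them. AP3D1 passed with neither TPM nor quantile normalization (log2 differences -0.10 and -0.02), and AP3M1 did not pass with quantile normalization (-0.07). AP-4, a Golgi adaptor, had AP4S1 and 1 of 2 genes called AP4M1 (ENSBGRG00000018946) higher in HMC by -0.45 and -0.86. Its subunits AP4B1 and AP4E1 did not pass, with log2 differences of 0.11 and -0.17, and neither did the other AP4M1 gene (ENSBGRG00000019443), which varied between 0.581 and 2.16 FPKM in DPC and passed without DPC replicate 3 (limma adjusted p = 0.00501).

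Clathrin, the outer coat, was abundant in both cell types. The heavy chain CLTC, the most abundant member of this group, stood at 159.2, 159 and 162 FPKM in DPC, against 191, 199.5 and 200.1 FPKM in HMC (log2 difference -0.30), and did not pass with TPM or quantile normalization (log2 differences -0.07 and -0.06). Light chain B (CLTB, in the table CLTLB) stood at 57.7, 56.2 and 56.3 FPKM in DPC, against 176, 173 and 173 FPKM in HMC (log2 difference -1.60, limma adjusted p = 2.7e-09). Light chain A (CLTA) differed by -0.38. CLTB held 28.8 to 31.7% of the summed light chain level in DPC and 50.5 to 51.1% in HMC. The GGA adaptors, which pick up the mannose 6-phosphate receptors, went both ways, GGA1 by -0.65, GGA3 by -0.58 and GGA2 (in the table KIAA1080) by 0.19. The GGA2 call was lost without DPC replicate 1, DPC replicate 3, HMC replicate 1 or HMC replicate 3, with limma adjusted p values of 0.0777, 0.077, 0.0617 and 0.055.

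**Figure D5:**
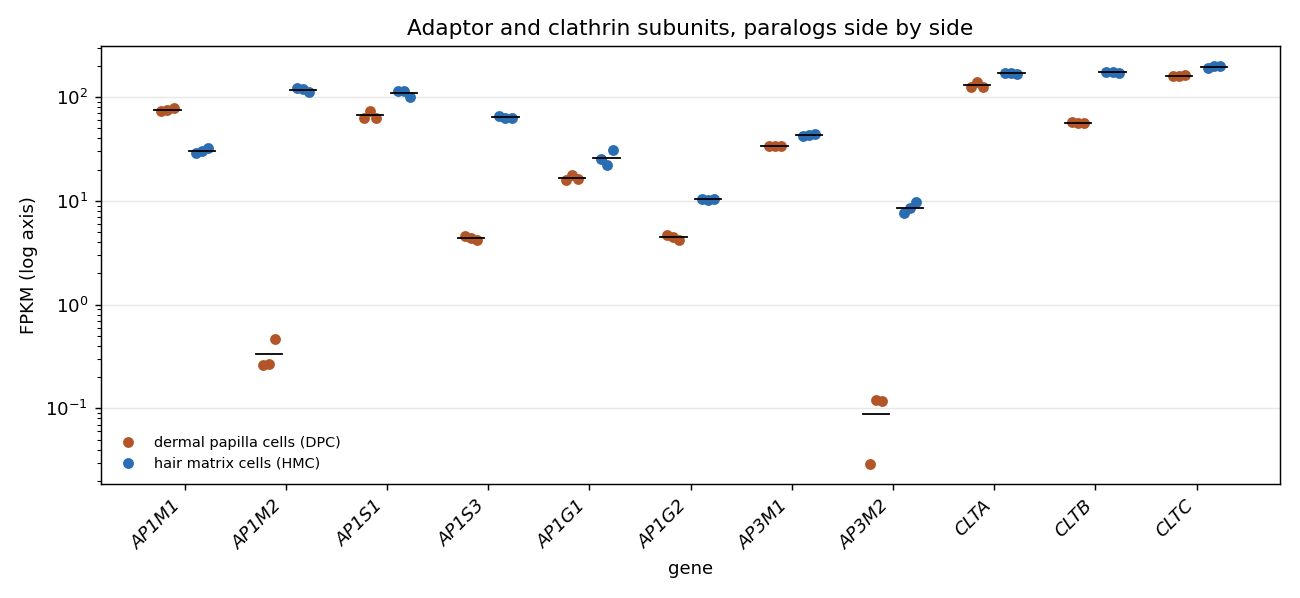
FPKM on a log axis for 11 adaptor and clathrin subunits with paralogs side by side, with 1 point per library, a bar at the group mean, and DPC left of HMC for each gene. AP1M2 and AP3M2 lie below 0.5 FPKM in DPC, against 113 to 123 and 7.63 to 9.69 FPKM in HMC, while AP1M1 is higher in DPC.

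Genes that control lysosome formation and nutrient sensing at its surface went both ways. Of 18 symbols in the list, 14 matched and 13 were tested. Of these, 5 were higher in DPC, beside 29.7% of all genes, and 6 in HMC, beside 46.2%. The median log2 difference was -0.21, beside -0.15 for all genes. The transcription factors TFEB, TFE3 and MITF switch on lysosomal genes. TFE3, the most abundant of them, stood at 52.0 ± 1.87 FPKM in DPC, against 35.4 ± 1.03 FPKM in HMC (n = 3 per group, SD; log2 difference 0.54, limma adjusted p = 1.49e-05). MITF (in the table BHLHE32) stood at 2.83 ± 0.271 FPKM in DPC, against 1.00 ± 0.154 FPKM in HMC (n = 3 per group, SD; log2 difference 0.93), and TFEB did not pass, at 3.63 ± 0.399 and 4.40 ± 0.346 FPKM (n = 3 per group, SD; limma adjusted p = 0.0573). The GTPase RRAGD, which helps to recruit the kinase mTORC1 to the lysosome, stood at 6.83 ± 0.660 FPKM in DPC, against 1.58 ± 0.306 FPKM in HMC (n = 3 per group, SD; log2 difference 1.61). The kinase itself, MTOR (in the table FRAP), stood at 13.7 ± 0.497 FPKM in DPC, against 29.0 ± 0.821 FPKM in HMC (n = 3 per group, SD; log2 difference -1.03). The Ragulator subunit LAMTOR4 was the most abundant of the list by the mean over all 6 libraries, though below LAMTOR5 and RRAGA in HMC, with a log2 difference of 0.24.

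Autophagy genes, whose vesicles deliver cytoplasm to the lysosome, went both ways. Of 27 symbols, 19 matched and were tested. Of these, 2 were higher in DPC, beside 29.7% of all genes, 9 were higher in HMC, beside 46.2%, and 8 were not called. The median log2 difference was -0.18, beside -0.15 for all genes. WIPI1 (in the table WIPI49), which binds the growing autophagosome, stood at 33.6 ± 1.70 FPKM in DPC, against 10.7 ± 1.18 FPKM in HMC (n = 3 per group, SD; log2 difference 1.56). VAMP8, which fuses vesicles with the lysosome, stood at 101 ± 3.13 FPKM in DPC, against 203 ± 15.5 FPKM in HMC (n = 3 per group, SD; log2 difference -0.995). RAB7A (in the table RAB7), the GTPase of late endosomes and the most abundant of the list by the mean over all 6 libraries, though below VAMP8 in HMC, did not pass, at 158 ± 4.04 and 149 ± 8.08 FPKM in DPC and HMC (n = 3 per group, SD; limma adjusted p = 0.109). GABARAPL1, which belongs to the family that coats autophagosomes, had a log2 difference of -0.81.

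Melanocytes carry lysosome-related organelles. Of 9 melanocyte symbols 6 matched, and their summed level was 5.96 to 6.37 FPKM in DPC, against 69.6 to 74.1 FPKM in HMC, in HMC nearly all of it EDNRB. PMEL averaged 2.98 FPKM in DPC, against 3.97 FPKM in HMC, and MLANA was above 0 only in HMC replicate 1, at 0.405 FPKM. SOX10 was listed at 0 in every DPC library and averaged 1.42 FPKM in HMC. MITF, also on this list, went the other way, with the values given above, and KIT averaged 0.0312 FPKM in DPC and was listed at 0 in every HMC library. The part of such cells in the levels of the lysosome genes was not tested.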

How the data were processed

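RNA was measured in 6 libraries, 3 of DPC and 3 of HMC, from stranded mRNA kits, per the labels' protocols. Tools listed in the submitters' processing notes, with no roles, are DESeq 1.20.0, HISAT2 2.2.1.0 and Trimmomatic. Not given in the sources used here: the counter, the build and the annotation, and therefore no coordinates are printed. The deposited values are FPKM, made by the authors for 15646 genes with 1 column per sample. FPKM makes no correction where the composition of RNA differs between samples. Every gene's values were whole multiples of a step (100% of genes, within 1e-06 of a read or, for larger values, 1e-09 of the value). The recovered reads are known up to a factor per gene, so their sums are lower limits of the depth. Chi-square values of 2.63 to 5.74 per gene between replicates showed them not to be copies of each other.

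Lysosome genes were found by their annotation, and 30 of 104 had an older symbol, read against the table's own annotation. Genes that share a symbol may share reads. Members and lists were chosen with earlier results of these data known. Named genes are, by a rule, all cathepsins, up to 4 members of largest difference per role without overlap, the most abundant one and all that did not pass. For other lists they are the most abundant one and up to 3 with the largest difference. Further members were named after their values were seen. A few members that the rule names are not reported here; they remain in the counts, medians and sums. In lists outside the members, the gene with the highest mean was taken where several share a symbol.

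Genes whose mean over the 6 samples reached 0.5 FPKM were tested on the scale log2(FPKM + 1) by limma 3.58.1 (R 4.3.3), whose prior variance followed a trend. The test was two-sided, DPC minus HMC, with Benjamini-Hochberg adjustment over all 11883 genes tested and a threshold of 0.05. The log2 scale with a pseudocount of 1 understates differences of low genes. The procedure was also run on simulated reads in which few genes differed, unlike in these data, so that run cannot judge the effect of scaling. Python 3.11.15 with numpy 2.4.6, pandas 2.3.3 and matplotlib 3.10.9 was used for the rest. A planned search for genes with the pattern most like CTSK was left out, because the samples fall into separate clusters, and so was the planned work on promoter and protein sequences, for which no table was used here. The alternatives were another pseudocount, no filter, a filter at 5 FPKM, 3 scalings, no trend, a replicate block, each library left out and, added after the data were examined, voom on the recovered reads.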

Additional observations from a re-analysis of the deposited data

How the results depend on the processing

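Of 96 tested members, 73 kept their direction and their side of the threshold under each of the 15 alternatives that tested them. The members higher in DPC numbered 47, between 43 and 53 across settings and between 44 and 46 with 1 library left out. The count of 43 came with a filter at 5 FPKM, where only 81 members were tested. Members higher in HMC numbered 37, between 30 and 38 across settings and between 36 and 37 with 1 library left out. The count of 38 came with no filter, where 104 members were tested. The number of proteases higher in HMC was 2, and 1 with a filter at 5 FPKM, where CTSO was no longer tested. Among members that changed direction, log2 differences with TPM were 0.031 for AP4E1, 0.030 for AP3B1 and 0.174 for NAGPA. With quantile normalization they were 0.063 for AP3B1 and 0.117 for NAGPA, and with median-of-ratios factors 0.098 for NAGPA. With 1 library left out, the log2 difference ranged between -0.142 and 0.023 for NAGPA, positive without DPC replicate 2, and between -0.030 and 0.053 for SORT1, negative without DPC replicate 3 (-0.018) or HMC replicate 3. It ranged between -0.018 and 0.178 for CD68 and between -0.004 and 0.080 for AP3S1, each negative without HMC replicate 2. The scalings move all genes by a common amount per library or rank, and the cause of the single changes was not tested. Same-numbered replicates did not deviate together (correlations of 0.023, 0.034 and 0.006). These values cannot decide whether the numbers pair the samples, because differences between cultures can hide a shared origin. With the replicate block, 8924 genes, 48 members toward DPC and 37 toward HMC were called. Members at or near 0 FPKM are not resolved at this depth.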

Other observations

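Of the 10 lysosome genes left out for their oxidative phosphorylation annotation, which are mostly subunits of the proton pump that acidifies the lysosome, 8 were tested. Of these, 2 were higher in DPC, 5 were higher in HMC and 1 did not pass in limma, beside 29.7% of all genes higher in DPC and 46.2% higher in HMC. The gene called ATP6N1 in the table stood at 10.5, 10.997 and 10.8 FPKM in DPC and 40.4, 42.0 and 40.1 FPKM in HMC. The gene called ATP6D went the other way, at 165.2, 165 and 164 FPKM in DPC and 117, 107 and 105 FPKM in HMC.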
